A study of Tursiops truncatus with 76 samples.

Results

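GBP4 and GBP6 encode guanylate-binding proteins, and both were measured in whole blood of wild common bottlenose dolphins (*Tursiops truncatus*). The 2 genes were chosen by symbol, as the loci of the FPKM table that the study's own tables pair with these names. They are 2 of 24094 loci in the table and of 11485 loci that passed the expression filter. FPKM count sequenced fragments relative to transcript length and library size, so levels can be compared between genes.

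Guanylate-binding proteins are large GTPases that human and mouse cells make in quantity after exposure to interferons, above all interferon gamma. They collect on the vacuoles and membranes of intracellular microbes, help to break them open and pass microbial products to inflammasomes. The signal runs from interferon receptors through JAK kinases to transcription factors such as IRF1, which switch on the guanylate-binding proteins together with antiviral enzymes and the antigen presentation machinery. In blood these genes are known as markers of a running interferon response.

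Blood was drawn from free-ranging animals during capture-release health assessments. Barataria Bay (BAR), which was oiled after the Deepwater Horizon spill, gave 60 samples. Its 5 collections, those of June 2013, of June and September 2017, of June 2014 and of July 2018, held 12 samples apiece. Sarasota Bay (SAR), the unoiled reference site, gave 8 samples in May 2014 and 8 in May 2016. BAR samples came from 40 females and 20 males, of which 23 were adults, 33 subadults and 4 calves, and SAR samples came from 8 females and 8 males, 11 adults and 5 subadults. The 76 samples came from 71 animals, 5 of which were sampled in 2 collections. No animal was treated. Samples of a group were separate blood draws, and both sites were sampled in the same year only in 2014, always in different months, so site and season cannot be told apart. The sites also differed in age class and pregnancy, and neither was in a model of the site difference.

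Depth and composition differed between libraries. Summed FPKM ran from 425816 to 1219802 with a median of 1007522, and the lowest came from a BAR male of July 2018. A relative depth read from low values ran, with the median library at 1, from 0.592 to 1.77. Of the loci tested between the sites, 92.3% had a positive difference BAR minus SAR, with a median of 0.39 on the log2 scale. Median-ratio scaling sets the typical locus of each library to a common level, so it brought this median to 0.01 by design. Values below are as deposited unless scaling is named. Whole blood holds red cells, platelets and all classes of white cell, and in such a mixture fewer cells of a type and less RNA per cell cannot be told apart.

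GBP6 and GBP4 lie on the same scaffold of the Tur_tru v1 assembly, NW_017844458.1, at positions 30430685 to 30450005 and 30562976 to 30581227, with 112970 bases between them. Both loci were detected in each of the 76 samples. GBP6 ranked 3546 and GBP4 6095 among the 11485 expressed loci by mean FPKM. GBP6 ranged from 1.71 to 164 FPKM with a median of 15.2, and GBP4 ranged from 0.952 to 42.5 FPKM with a median of 7.75. GBP6 was the more abundant transcript in 74 of 76 samples, and the median ratio of GBP6 to GBP4 was 2.02. Guanylate-binding proteins are a family of similar genes, so reads that fit several copies could have been shared between loci, and the levels are uncertain to that extent.

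The FPKM table holds 11 other loci within 500000 bases of the pair, 9 of them expressed and 1 named, LRRC8C, a subunit of volume-regulated anion channels. Of these, 2 unnamed loci had an r over 0.8 with both genes. An unnamed locus at positions 30606443 to 30617528, with a mean of 54.7 FPKM, had a Pearson r of 0.93 with GBP6 and 0.92 with GBP4 over the 76 samples. An unnamed locus that lies between the 2 genes, at 30495702 to 30508537, had an r of 0.81 with GBP6 and 0.82 with GBP4 at a mean of 3.93 FPKM. LRRC8C had an r of 0.38 and 0.45. Another unnamed locus between the genes, at 30541852 to 30561620, was listed at 0 in 70 samples. Whether the unnamed loci are further guanylate-binding proteins was not determined here.

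Most SAR samples held less of both genes than most BAR samples. GBP6 in BAR had a lowest value of 3.64, a median of 17.3 and a highest of 164 FPKM (n = 60). GBP6 in SAR had a lowest value of 1.71, a median of 7.93 and a highest of 148 FPKM (n = 16). GBP4 in BAR had a lowest value of 2.32, a median of 8.44 and a highest of 42.5 FPKM. GBP4 in SAR had a lowest value of 0.952, a median of 4.05 and a highest of 37.2 FPKM. The ranges overlapped, but 55 of 60 BAR samples lay above the SAR median of GBP6 and 53 of 60 above that of GBP4. Conversely, 1 of 16 SAR samples lay above the BAR median of GBP6 and 2 of 16 above that of GBP4.

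**Figure D1:**
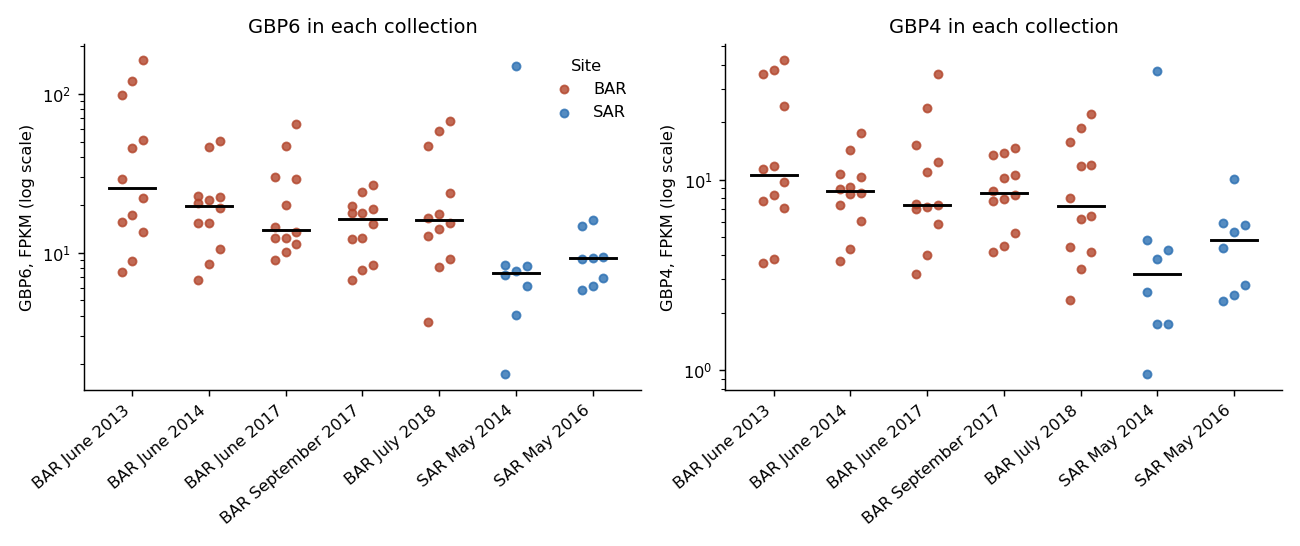
FPKM of GBP6 (left) and GBP4 (right) in each sample by collection, on log axes, with BAR in red, SAR in blue and a black line at the median of each collection. In SAR May 2014 1 sample stands at 148 FPKM of GBP6 and 37.2 FPKM of GBP4, while the other 7 are at most 8.4 and 4.82 FPKM.

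Both genes were higher in BAR by limma on log2(FPKM + 1), a scale that understates changes of low values. GBP6 was higher by 1.04 on the log2 scale (SE 0.29, 95% interval 0.455 to 1.618), a 2.05-fold difference, with a Benjamini-Hochberg adjusted p of 0.00182. GBP4 was higher by 0.997 (SE 0.24, 95% interval 0.52 to 1.47), with an adjusted p of 0.00036. In this comparison 73.0% of all loci passed the threshold, 70.4% as higher in BAR and 2.54% as lower, so passing it does not set the 2 genes apart. The difference exceeded that of 99.7% of loci for GBP6 and of 99.6% for GBP4. Relative to the median locus, GBP6 was higher by 0.64 and GBP4 by 0.60.

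The calls between the sites did not hold under rescaling of the libraries. With median-ratio scaling GBP6 was higher by 0.63 (SE 0.28, limma adjusted p = 0.167) and GBP4 by 0.63 (SE 0.22, limma adjusted p = 0.0669), where 7.68% of loci passed, 1.99% as higher and 5.69% as lower. With quantile normalization the values were 0.65 and 0.61 with limma adjusted p of 0.131 and 0.0727, where 7.20% of loci passed. Red cell markers moved the other way and also differed between sites: all 5 named of 6 (ALAS2, AHSP, GYPC, DMTN and TRIM58) were lower in BAR, and their summed level had a range of 3985 to 44787 FPKM in BAR and 16047 to 54310 in SAR. As deposited, where 70.4% of all loci were called higher, 3 of 3 named monocyte, 3 of 3 T cell and 3 of 3 eosinophil and basophil markers were higher in BAR. So were 1 of 3 neutrophil, 1 of 3 B cell, 1 of 2 cytotoxic and 1 of 2 platelet markers. With median-ratio scaling none of these white cell and platelet markers passed and all 5 red cell markers were still lower, and the part of cell composition in the difference of the 2 genes was not tested.

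A single library stood apart and moved these results. It came from an adult, non-pregnant SAR female of May 2014 with recorded anemia and hepatobiliary findings. The only other SAR sample with recorded anemia, also of May 2014, had 1.71 FPKM of GBP6, the lowest of all 76 samples, and 1.74 FPKM of GBP4. The library that stood apart held 148 FPKM of GBP6, where the other 15 SAR samples had a range of 1.71 to 16 FPKM. It held 37.2 FPKM of GBP4, where the others had a range of 0.952 to 10 FPKM. Only 1 BAR sample had more GBP6 and only 2 had more GBP4. The summed FPKM of the library was 1187707, within the range of the others.

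The same library was the highest of the 16 SAR samples in most interferon genes. IDO1, a tryptophan-degrading enzyme strongly induced by interferon gamma, stood at 89.4 FPKM, above each of the 60 BAR samples, against a range of 0.105 to 1.63 in the other SAR samples. ISG20, an antiviral exonuclease, stood at 346 FPKM against 11.9 to 62.7. The antiviral gene OAS1 stood at 7.31 FPKM against 0.152 to 5.15, but 41 BAR samples had more. The library was the highest SAR sample for 6 of 8 interferon transcription factors, 22 of 30 antiviral genes and 9 of 13 genes of the interferon gamma and antigen presentation list. It was the highest for none of 3 interferon receptor and kinase genes, whose median log2 difference from the other SAR samples was -0.46. It was the highest for 2 of 4 inflammasome genes and not for ATL3, a relative of the guanylate-binding proteins. Over all expressed loci it was the highest SAR sample for 8.6%. It was also highest for 1 of 3 monocyte and 1 of 3 eosinophil and basophil markers. None of the 5 red cell, 3 neutrophil, 3 T cell, 2 cytotoxic, 3 B cell or 2 platelet markers was highest in it.

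**Figure D2:**
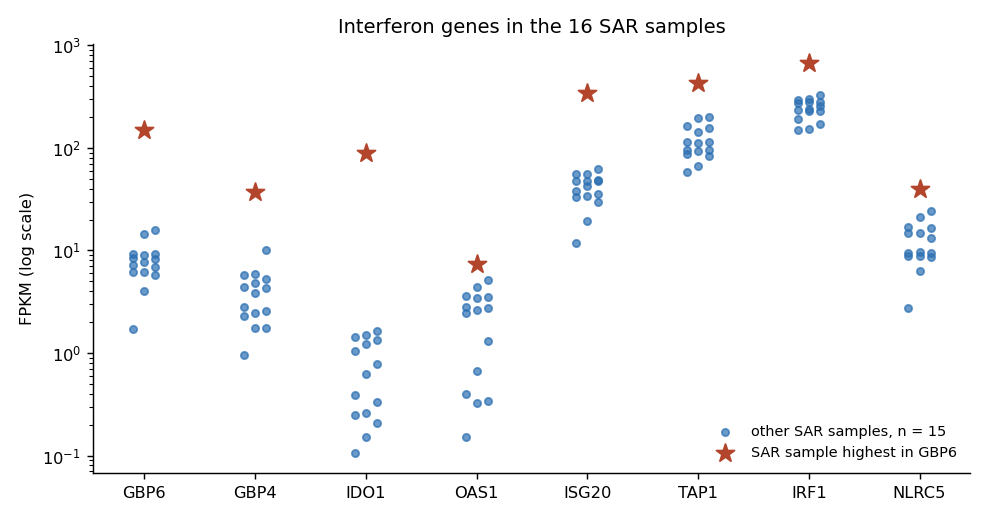
FPKM on a log axis of GBP6, GBP4 and 6 interferon genes in the 16 SAR samples, with the sample highest in GBP6 as a red star and the other 15 as blue points. The star lies above all other points for each gene, for IDO1 at 89.4 FPKM against at most 1.63.

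This library was noticed from its values, so results without it were chosen after seeing the data. Dropping a SAR library for its high GBP6 raises the difference BAR minus SAR by construction. The p-values without it are therefore a description and do not test the site difference. Without it, GBP6 was higher in BAR by 1.297 (SE 0.27, limma adjusted p = 0.000115) and GBP4 by 1.19 (SE 0.23, limma adjusted p = 4.09e-05), where 70.8% of loci passed, 68.3% as higher. With median-ratio scaling as well, GBP6 was higher by 0.90 (SE 0.25, limma adjusted p = 0.0109) and GBP4 by 0.83 (SE 0.20, limma adjusted p = 0.00336), with 7.17% of loci passing, 1.93% as higher. Leaving out the highest library of each site removed 1 of 16 samples in SAR but 1 of 60 in BAR, so the removal weighed more on SAR. After the same scaling this gave 0.85 and 0.81, with limma adjusted p of 0.00905 and 0.00388. With median-ratio scaling the 2 genes thus passed without this library and not with it. Since it was left out for its GBP6 level, this does not establish a site difference after scaling.

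In 2014, the year with samples from both sites, medians differed. Leaving out the same library moved only GBP6 as deposited past the threshold. GBP6 in BAR June 2014 ran from 6.74 over a median of 19.8 to 50.7 FPKM (n = 12), and in SAR May 2014 from 1.71 over a median of 7.44 to 148 FPKM (n = 8). GBP4 ran from 3.73 over 8.72 to 17.6 FPKM in BAR and from 0.952 over 3.21 to 37.2 FPKM in SAR. GBP4 was higher in BAR by 0.96 (SE 0.39, limma adjusted p = 0.0297), and GBP6 differed by 0.98 (SE 0.50, limma adjusted p = 0.0819), where 72.6% of loci passed, 70.1% as higher. Without the high SAR library the difference was 1.54 for GBP6 (SE 0.33, limma adjusted p = 0.000475) and 1.39 for GBP4 (SE 0.26, limma adjusted p = 0.000136), where 73.0% of loci passed. With scaling neither gene passed, with limma adjusted p of 0.756 and 0.637 for GBP6 and GBP4 (10.8% of loci passed), or 0.074 and 0.0558 without that library (9.54% passed).

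Between the SAR years neither gene passed. GBP6 in May 2016 ran from 5.8 over a median of 9.19 to 16 FPKM and GBP4 from 2.3 over 4.83 to 10 FPKM (n = 8). May 2016 minus May 2014 was 0.03 for GBP6 (SE 0.54, limma adjusted p = 0.969) and 0.17 for GBP4 (SE 0.45, limma adjusted p = 0.81), where 17.2% of loci passed. Without the high library the differences were 0.595 and 0.596, at limma adjusted p of 0.131 and 0.147, where 15.5% of loci passed. The difference between the sexes was not shown to vary between sites, since neither gene passed in the interaction of sex and site (limma adjusted p = 1 for each, no locus of the table called and 336 at an unadjusted p under 0.05).

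**Figure D3:**
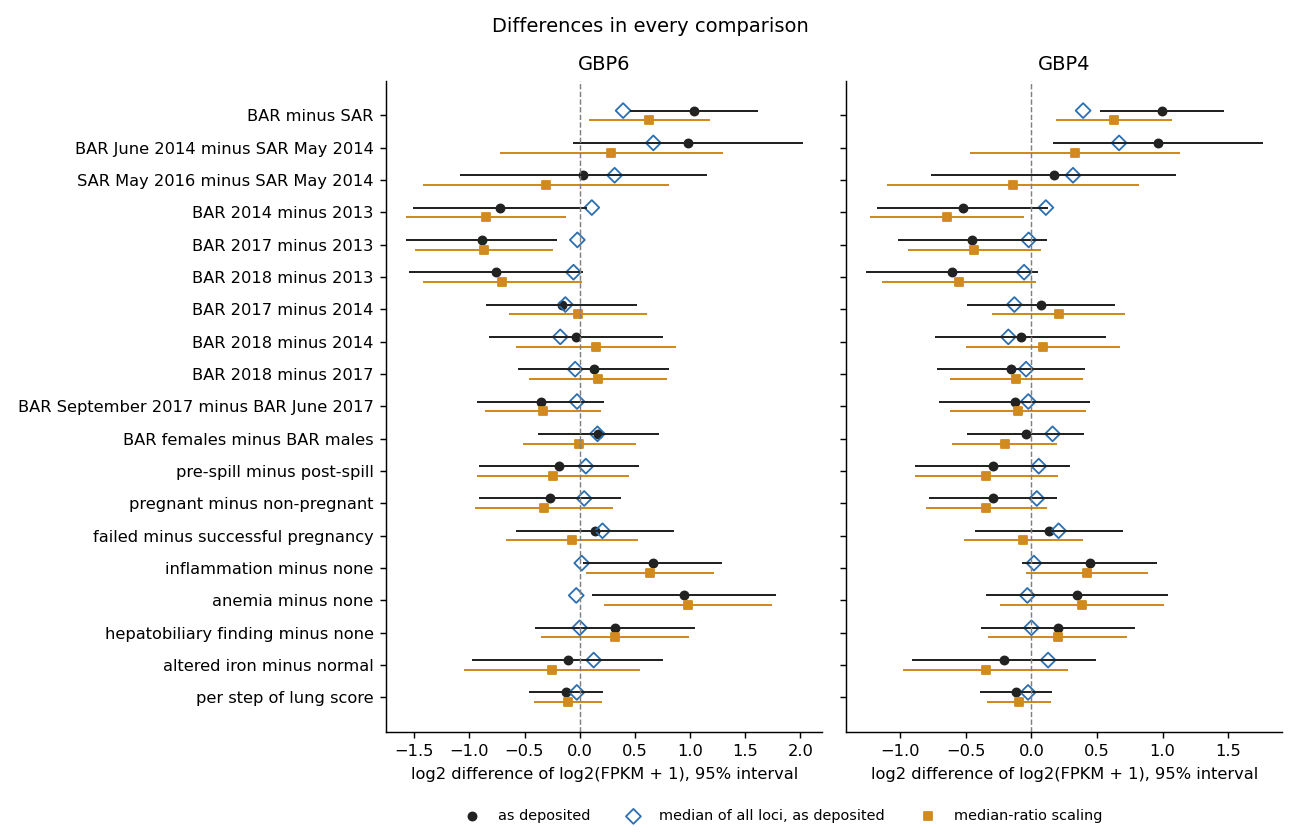
Differences in log2(FPKM + 1) of GBP6 (left) and GBP4 (right) in the 19 comparisons with 95% intervals, as deposited (black) and after median-ratio scaling (orange), with the median of all loci as blue diamonds. BAR minus SAR stands at 1.04 and 0.997 as deposited and at 0.63 for both after scaling.

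Of the 19 comparisons fitted for each gene, GBP6 passed in 1 and GBP4 in 2, those described above. The 17 others concern years, season, sex, birth cohort, pregnancy and health findings, and neither gene passed in any of them. GBP6 reached an unadjusted p under 0.05 in 3 of these, 2017 against 2013, inflammation and anemia. GBP4 reached it in none. The 3 GBP6 results share samples and are not separate. Anemia and inflammation were both recorded for the BAR samples at 22.8, 58.4 and 164 FPKM of GBP6. The sample at 164 FPKM was of June 2013 and, like that at 58.4 FPKM, also had a hepatobiliary finding.

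Within BAR, June 2013 held the widest spread and the highest values of both genes. GBP6 ran from 7.52 over a median of 25.5 to 164 FPKM in June 2013 (n = 12). It ran from 9.01 over 14 to 64.1 FPKM in June 2017, from 6.72 over 16.4 to 26.6 FPKM in September 2017 and from 3.64 over 16 to 67.4 FPKM in July 2018. Medians of the 5 BAR collections thus fell in the order June 2013, June 2014, September 2017, July 2018 and June 2017, and each collection overlapped the next. GBP6 was above 50 FPKM in 4 of 12 samples of June 2013, 1 of June 2014, 1 of June 2017, 2 of July 2018 and in no sample of September 2017. GBP4 ran from 3.66 over 10.5 to 42.5 FPKM in June 2013, from 3.19 over 7.37 to 35.9 in June 2017, from 4.16 over 8.5 to 14.6 in September 2017 and from 2.32 over 7.23 to 22.1 in July 2018.

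The year differences did not pass the threshold. GBP6 was at -0.72 in 2014 against 2013 (SE 0.40, limma adjusted p = 0.603), -0.89 in 2017 (SE 0.34, limma adjusted p = 0.222) and -0.76 in 2018 (SE 0.40, limma adjusted p = 0.997). GBP4 was at -0.52, -0.45 and -0.61 in the same comparisons, which share the 2013 samples. No locus of the table passed in any of the 3 (0% of 11582 loci), and 990, 1565 and 590 loci had an unadjusted p under 0.05. In 2014 against 2013 the GBP6 value was lower than that of all but 0.3% of loci, and in 2017 against 2013 likewise. Later years differed little from each other, with GBP6 between -0.16 and 0.13 and GBP4 between -0.16 and 0.07, and the season within 2017 gave -0.35 for GBP6 and -0.13 for GBP4 (limma adjusted p of 0.844 and 0.968). In 2017 against 2014, 1.16% of loci passed, and in the other pairs and between seasons 0% did, with 1669 (2018 against 2014), 782 (2018 against 2017) and 905 (season) at an unadjusted p under 0.05.

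After median-ratio scaling, 5.08% of loci passed in 2017 against 2013, 2.43% as higher and 2.64% as lower. GBP6 was then at -0.87 (limma adjusted p = 0.0896) and GBP4 at -0.43 (limma adjusted p = 0.33), so neither passed. Of the 54 loci of the 4 interferon lists, 8 were lower, namely IDO1 at -1.09, ISG20 at -1.03, 1 of the 2 DHX58 loci at -0.84 (the other, at -0.64, did not pass), EPSTI1 at -0.81, OASL at -0.78, PSME2 at -0.71, PSMB9 at -0.64 and NMI at -0.63. IFNAR1, a receptor chain for type I interferons, was higher by 0.25. As deposited none of the 54 passed in this comparison.

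The 5 BAR animals sampled in 2 collections showed 1 large change. A male had 164 FPKM of GBP6 in June 2013, the highest value of the series, and 20.6 FPKM in June 2014. GBP4 in this male was 24.2 FPKM in 2013 and 8.37 FPKM in 2014, and inflammation and anemia were recorded in 2013 and not in 2014. A second male had 12.2 FPKM of GBP6 in September 2017 and 14.1 in July 2018. Among the 3 females GBP6 was 21.4 and 19.7 FPKM in one and 15.4 and 18.9 FPKM in another at the first and the later sampling, and in the last it began at 7.74 FPKM and changed by 0.22 on the log2 scale. Findings were recorded at the first sampling only in 2 of these females as well, anemia in the one that went from 15.4 to 18.9 FPKM and inflammation in the last, and GBP6 did not fall in either. In these 4 animals the later value of GBP4 differed from the first by -0.31 to 0.10 on the log2 scale, against -1.43 in the first male.

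Females and males of BAR overlapped throughout. GBP6 had a median of 17.4 FPKM in 40 females and 16.3 in 20 males, and GBP4 medians of 8.39 and 8.65 FPKM. The differences were 0.17 (SE 0.28, limma adjusted p = 0.679) and -0.04 (SE 0.22, limma adjusted p = 0.906), where 0.276% of loci passed.

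Birth cohort separated animals born before the spill, 46 samples, from those born after it, 9 samples of which 6 were from June 2017. All post-spill samples came from calves or subadults, and all BAR adults were pre-spill. Age was in no model, so cohort and age were not told apart. GBP6 ran from 6.72 over a median of 17.3 to 164 FPKM before and from 9.01 over 19 to 64.1 FPKM after. GBP4 ran from 3.4 over 8.61 to 37.6 FPKM before and from 3.19 over 10.2 to 42.5 FPKM after. Pre-spill minus post-spill was -0.18 for GBP6 (SE 0.36, 95% interval -0.91 to 0.54) and -0.30 for GBP4 (SE 0.29, 95% interval -0.88 to 0.29), with limma adjusted p of 0.844 and 0.645, where 0.760% of loci passed. With collection as a term the values were -0.34 and -0.47, and within the samples of 2017 -0.47 and -0.15.

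Pregnant and non-pregnant females had like medians, and the highest values were in non-pregnant animals. GBP6 ran from 4.05 over a median of 15.7 to 47 FPKM in 21 pregnant females and from 6.72 over 16 to 148 FPKM in 20 non-pregnant ones. Of the pregnant females 1, and of the non-pregnant ones 5, were from SAR, the site with the lower levels. GBP4 ran from 3.4 over 7.91 to 15.7 FPKM and from 2.58 over 8.25 to 37.6 FPKM. The difference was -0.27 for GBP6 (SE 0.32, limma adjusted p = 0.929) and -0.30 for GBP4 (SE 0.24, limma adjusted p = 0.89), where 0.00865% of loci passed. Without the high SAR library, a non-pregnant female, GBP6 was at -0.12, and without the collection of June 2013 it was at 0.10, the opposite sign. Within BAR the values were -0.242 for GBP6 and -0.335 for GBP4.

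Outcome of pregnancy was compared in 13 failed and 6 successful pregnancies, of which 1, the successful one with the least GBP6, was from SAR. A female sampled in separate collections gave a failed pregnancy each time, and another gave a failed and later a successful one. The fit treats these samples as independent, and none with the animal as block was made for outcome. GBP6 ran from 6.74 over a median of 15.7 to 28.9 FPKM in failed and from 4.05 over 14.7 to 46.3 FPKM in successful pregnancies. The difference was 0.14 for GBP6 (SE 0.35, limma adjusted p = 0.871) and 0.13 for GBP4 (SE 0.27, limma adjusted p = 0.841), with 0% of loci passing and 634 at an unadjusted p under 0.05. The sign was not stable, since GBP6 was at -0.19 within BAR and at -0.07 and -0.09 with median-ratio scaling and quantile normalization.

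Among health findings in BAR, anemia went with the largest GBP6 difference. GBP6 in the 6 animals with anemia was 8.85, 15.4, 22.8, 58.4, 67.4 and 164 FPKM, and in the 54 others it ran from 3.64 over a median of 16.9 to 121 FPKM. GBP4 ran from 3.66 over 13.6 to 24.2 FPKM with anemia and from 2.32 over 8.33 to 42.5 FPKM without. Of the 6, 2 each came from June 2013, June 2014 and July 2018, and 4 of the 6 lay above the median of the others. The difference was 0.95 for GBP6 (SE 0.42, 95% interval 0.12 to 1.78, unadjusted p = 0.0262, limma adjusted p = 0.999) and 0.35 for GBP4 (SE 0.35, limma adjusted p = 0.999). No locus passed (0%), and 400 had an unadjusted p under 0.05. With collection as a term the GBP6 value was 0.84, and without June 2013 it was 1.04, while GBP4 was then at 0.58. The summed level of the 5 named red cell markers had a range of 13894 to 30090 FPKM with anemia and of 3985 to 44787 without, and its part in the difference was not tested.

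Inflammation was recorded in 12 BAR samples, 4 of them of June 2013. GBP6 ran from 7.74 over a median of 24.7 to 164 FPKM with inflammation and from 3.64 over 16.1 to 121 FPKM in the 48 without. GBP4 ran from 4.18 over 11.5 to 35.9 FPKM with and from 2.32 over 8.29 to 42.5 FPKM without. The difference was 0.66 for GBP6 (SE 0.31, 95% interval 0.03 to 1.29, unadjusted p = 0.0392, limma adjusted p = 0.784) and 0.44 for GBP4 (SE 0.26, limma adjusted p = 0.834). No locus passed (0%), and 712 had an unadjusted p under 0.05. Without June 2013 the values fell to 0.15 and 0.20.

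The other findings gave smaller differences. The 9 samples with a hepatobiliary finding had a median GBP6 of 22 FPKM against 17.2 in 51 without, a difference of 0.32 (SE 0.36, limma adjusted p = 0.998), and GBP4 differed by 0.20 (SE 0.29, limma adjusted p = 0.998). Without June 2013 these values were 0.07 and 0.10. The 6 samples with altered iron had a median GBP6 of 20.6 FPKM against 16.9 in 54, a difference in means of -0.11 (SE 0.43, limma adjusted p = 0.952), and GBP4 differed by -0.21 (SE 0.35, limma adjusted p = 0.888). Without June 2013 these were 0.07 and -0.10. Over 57 samples scored from normal to severe lung disease, the slope per step was -0.13 for GBP6 (SE 0.17, limma adjusted p = 0.965) and -0.12 for GBP4 (SE 0.14, limma adjusted p = 0.963). In these 3 comparisons 0% of loci passed, and 495, 479 and 532 had an unadjusted p under 0.05.

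GBP6 and GBP4 rose and fell together across all samples and within BAR, and less closely in SAR without its high library. Over all 76 samples Pearson r was 0.90 and Spearman rho 0.90, and within the 5 BAR collections r ran from 0.79 to 0.94 (n = 12 each). In SAR May 2016 r was 0.87 (n = 8). In SAR May 2014 r was 0.87 (n = 8) but rested on the high library, since without it r was 0.09 (n = 7). Over the 15 SAR samples other than the high library r was 0.58, and 0.33 after median-ratio scaling. These values describe samples that share library depth, and after median-ratio scaling r over the 76 samples was 0.87.

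**Figure D4:**
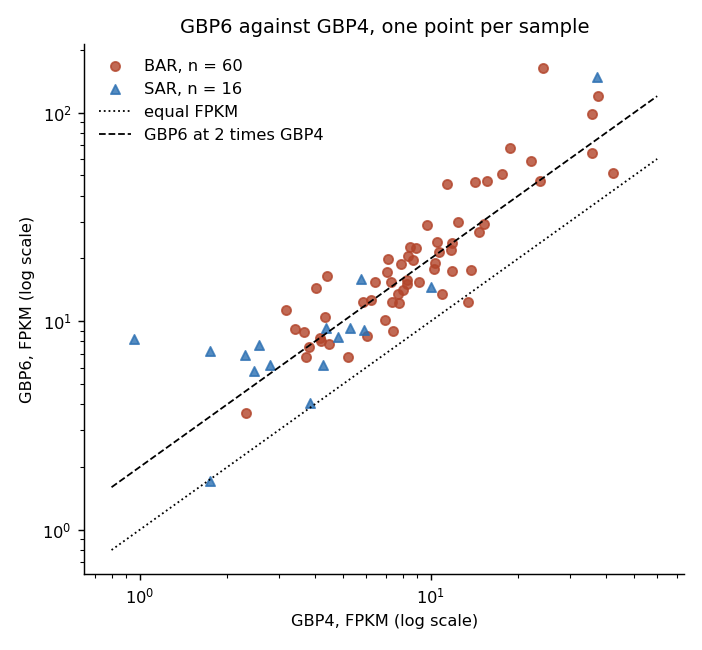
GBP6 against GBP4 in FPKM, 1 point per sample on log axes, with BAR as red circles and SAR as blue triangles and lines at equal levels and at 2 times GBP4. Points follow the upper line, and GBP6 exceeds GBP4 in 74 of 76 samples.

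The balance between the 2 genes was compared as the difference in mean log2((GBP6 + 1)/(GBP4 + 1)) in 18 comparisons, and none passed after adjustment. Between the sites it was 0.04 higher in the 60 BAR samples than in the 16 SAR samples (permutation p = 0.788, adjusted p = 0.945), with an SD of 0.48 and 0.63. The largest difference was with anemia, 1.54 ± 0.64 (SD, n = 6) against 0.94 ± 0.43 (SD, n = 54), a difference of 0.60 by a two-sided permutation test (p = 0.00448, adjusted p = 0.0806). The next was 2017 against 2013 at -0.43 (permutation p = 0.0184, adjusted p = 0.166). GBP6 thus changed by more than GBP4 in these 2 comparisons before adjustment only.

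The genes whose pattern was most like that of GBP6 and GBP4 were interferon genes for the most part. Of all 11485 expressed loci, 36 had an r over 0.8 with GBP6 and 25 with GBP4, while the median locus had an r of 0.29 and 0.31. After median-ratio scaling 15 and 7 loci had an r over 0.8, and the median locus had an r of -0.01 for both. The 8 named loci nearest to each gene were the same 8, in a slightly different order, and 7 of them are described here. NMI, an interferon-induced regulator of cytokine signalling, had an r of 0.89 with GBP6 and 0.84 with GBP4. TAP1, the peptide transporter of antigen presentation, had 0.87 and 0.85, and NLRC5, the activator of MHC class I genes, had 0.87 and 0.88. WARS, the tryptophanyl-tRNA synthetase, had 0.89 and 0.88, UBE2L6, which conjugates ISG15, had 0.85 and 0.83, and GIMAP7, a GTPase of lymphocytes, had 0.88 for both. The nearest of the named loci was LOC101325202 at 0.94 and 0.91, a symbol with no further name here. Within the 60 BAR samples these r ran from 0.78 to 0.94.

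By list, the transcription factor, antiviral and antigen presentation lists had a higher median r with the 2 genes than the marker lists had. The receptor and kinase list did not. Single genes overlapped, since r with GBP6 ran from 0.05 to 0.85 in the antiviral list and from 0.52 to 0.76 among monocyte markers. The median r with GBP6 was 0.78 for 8 interferon transcription factors, 0.74 for 30 antiviral genes, 0.78 for 13 genes of the interferon gamma and antigen presentation list and 0.31 for 3 receptor and kinase genes. It was 0.56 for 3 monocyte markers, 0.31 for 3 neutrophil, 0.27 for 3 T cell, 0.36 for 2 cytotoxic, 0.02 for 3 B cell, 0.21 for 3 eosinophil and basophil, 0.11 for 2 platelet and -0.29 for 5 red cell markers. For 4 inflammasome genes, partners downstream of guanylate-binding proteins, it was 0.60. Of the family itself, 1 relative could be named, ATL3, an endoplasmic reticulum GTPase, at 0.31. After median-ratio scaling the median r with GBP6 was 0.68 for the transcription factors, 0.64 for the antiviral genes, 0.69 for the antigen presentation list, 0.44 for the inflammasome genes and 0.39 for the monocyte markers. It was then -0.13 for the receptors and kinases, -0.02 for T cell, -0.21 for B cell and -0.12 for platelet markers and -0.20 for ATL3, all of the opposite sign to that as deposited. Symbols come from tables the study made from these samples, so 52 of 94 interferon genes could be named and the named ones are not independent of the data.

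Between the sites the interferon genes were higher in BAR, as were most loci. Of 54 interferon loci, which stand for 52 genes, 52 were higher, none was lower and 2 did not pass, with a median of 0.72 against 0.39 for all loci and 70.4% of all loci called higher. OAS1, a sensor of double-stranded RNA, had the largest difference at 1.79 (SE 0.34, limma adjusted p = 2.87e-05), and PLSCR1, a phospholipid scramblase, the smallest at 0.28. All 3 receptor and kinase genes, 8 of 8 transcription factors, 30 of 30 antiviral genes and 11 of 13 interferon gamma and antigen presentation genes were higher. IRF1 was higher by 0.64 (SE 0.17) and IRF9, the DNA-binding part of the type I interferon complex, by 0.59 (SE 0.16). TAP1 was higher by 0.94 (SE 0.19), NLRC5 by 0.91 (SE 0.20), PSMB9, an immunoproteasome subunit, by 0.77 (SE 0.18), RSAD2, an antiviral enzyme, by 0.88 (SE 0.30) and ISG20 by 0.74 (SE 0.28). IDO1 did not pass at 0.40 (SE 0.29, limma adjusted p = 0.193). Of the 4 inflammasome genes 3 were higher, NLRC4 most at 0.78, and ATL3 was higher by 0.46.

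With median-ratio scaling, 8 of the 54 interferon loci were higher and none lower, with a median of 0.29 against 0.01 for all loci and 1.99% of loci called higher. OAS1 at 1.47, DTX3L at 0.87, OASL at 0.64, PARP14 at 0.64, PARP9 at 0.49, CMPK2 at 0.47 and DDX60 at 0.46 were among them, and all 8 were on the antiviral list. TAP1, at 0.48 (limma adjusted p = 0.056), did not pass. Without the high SAR library, 54 of 54 loci were higher as deposited, where 68.3% of all loci were, and 15 of 54 with scaling, where 1.93% of all loci were. That library was left out for its high GBP6 and was also the highest of SAR in most interferon loci. Leaving it out therefore tends to raise these counts. In 2014 alone 45 of 54 were higher as deposited, where 70.1% of all loci were, and none with scaling.

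In the years against 2013, with pregnancy, inflammation and anemia, the median of the interferon loci had the same sign as the values of GBP6 and GBP4, and for birth cohort it did not. Medians over the 54 loci were -0.21 in 2014 against 2013 (all loci 0.11), -0.35 in 2017 against 2013 (all loci -0.02) and -0.26 in 2018 against 2013 (all loci -0.06). They were -0.25 with pregnancy (all loci 0.04), 0.26 with inflammation (all loci 0.02), 0.14 with anemia (all loci -0.03) and 0.01 for birth cohort (all loci 0.06). As deposited none of the 54 passed in any of these. With anemia GBP6 was at 0.95, IDO1 at 0.73, IRF1 at 0.08 and RSAD2 at -0.31, none past the threshold. With inflammation IDO1 was at 0.73.

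**Figure D5:**
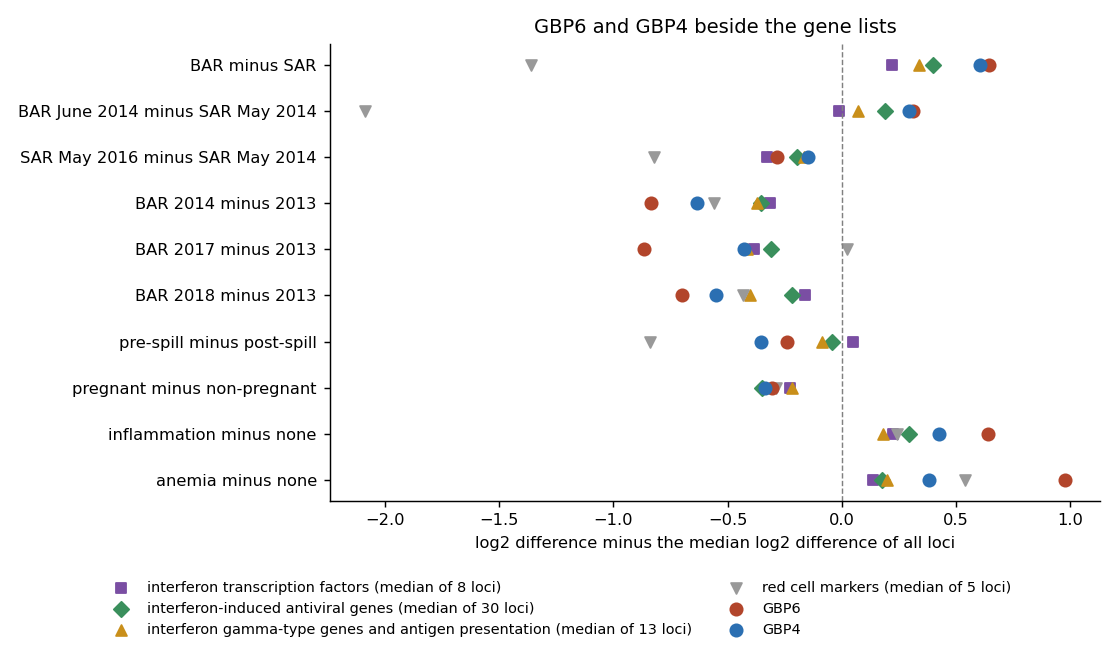
Log2 difference minus the median of all loci for GBP6 (red circles), GBP4 (blue circles) and the medians of 3 interferon lists and of red cell markers in 10 comparisons. GBP6 and GBP4 lie to the right of the interferon lists between the sites, at 0.64 and 0.60, and GBP6 lies to the left of them in the years against 2013.

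The 10 samples highest in GBP6 held 4 of June 2013, 2 of June 2017, 2 of July 2018, 1 of June 2014 and the SAR sample of May 2014. IDO1 in these 10 ran from 2.75 to 89.4 FPKM. All of the 10 were also among the 10 highest in GBP4. Anemia or inflammation was recorded for 6 of the 10 and for 19 of all 76 samples. The 10 were picked by their GBP6 level and 4 share a collection, so these counts are a description and test no link with the findings.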

How the data were processed

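The deposited values are FPKM per locus, which the authors made with Trimmomatic 0.33, a FastQC 0.1 app, TopHat2 2.1.1 with Bowtie2 on Tur_tru v1 and Cufflinks 2.2.1, with hemoglobin transcripts masked. RNA came from PAXgene tubes. The authors used strand-marking libraries; how reads that fit several family members were divided is not given in the sources used here. FPKM hold no counts, so relative depth was estimated from steps of low values. Loci were named from pairs of position and symbol in tables the study made from these samples, which name 3144 of 24094 loci. Cohort, pregnancy and health findings came from the study's sample table, joined on animal and date.

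A locus entered a test where its mean was at least 1 FPKM and no more than 50% of the libraries in that test listed it at 0. The tests were moderated linear models on log2(FPKM + 1) with a mean-variance trend (limma 3.58.1, R 4.3.3), with Benjamini-Hochberg adjustment over all loci at 0.05. BAR years were contrasts of 1 fit. The gene ratio was compared by two-sided permutation tests, exact where a group had fewer than 10 samples and the splits were at most 100000, otherwise with 100000 resamples, adjusted over 18 comparisons. Correlations carry no p. Python 3.11.15, numpy 2.4.6, pandas 2.3.3, scipy 1.17.1 and matplotlib 3.10.9 were used. The routine of the ratio tests was checked on a small set of fixed values, and a standard permutation test of scipy was run on simulated data.

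Named genes are the 2 members, list members by size and a set of interferon genes, the 8 most similar named loci and loci within 500000 bases. Members and lists were chosen with earlier results of these data known. Alternatives were a pseudocount of 0.1, no filter, 2 scalings, sex, collection or animal in the model, subsets of samples and, chosen after seeing the data, leaving out June 2013 or the libraries highest in GBP6. A copy of the table in another column order was not used. Some results of single genes are not reported here.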

Additional observations from a re-analysis of the deposited data

Results flagged for a closer look

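Of 22 groups of 4 to 10 samples examined by gene, 8 held a highest sample far from the others by Dixon's 95% criterion, and several of the groups share samples. Chance meets this criterion in about 1 of 20 groups of normally distributed values. FPKM are skewed towards high values, so that rate does not apply here and the flags are a description. The SAR female described above accounts for 4 of the 8, with 148 FPKM of GBP6 against at most 8.4 in SAR May 2014 and at most 14.6 among SAR females, and 37.2 FPKM of GBP4 against at most 4.82 and at most 10. GBP4 in SAR May 2016 reached 10 FPKM in 1 sample, and GBP6 among SAR males reached 16 FPKM in 1 sample against at most 9.32. Among BAR samples with a hepatobiliary finding, GBP6 reached 164 FPKM in the male of June 2013 against at most 58.4. Among BAR samples with a normal lung score, GBP4 reached 42.5 FPKM in 1 sample against at most 17.6.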

How the results depend on the processing

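Of the alternatives to limma results, 271 kept direction and side of the threshold, 9 lost a call, 2 gained one and 24 changed sign, all of the latter in comparisons in which neither gene passed; of those for the gene ratio, 35 kept both and 5 changed sign. Between the sites, median-ratio scaling gave 0.632 for GBP6 and 0.629 for GBP4, and quantile normalization 0.654 and 0.613, without a call. In 2014 the call of GBP4 was lost without a filter (0.964), with median-ratio scaling (0.329), quantile normalization (0.270), and with scaling after leaving out the SAR library highest in GBP6 (0.758) or the highest of each site (0.687), while GBP6 was called as deposited without those libraries (1.541 and 1.413). Changed signs under median-ratio scaling and quantile normalization were, for GBP6 and GBP4 in turn, -0.306, -0.141, -0.299 and -0.208 between SAR years, 0.151, 0.091, 0.151 and 0.129 in 2018 against 2014, and -0.070, -0.061, -0.092 and -0.061 for pregnancy outcome. For 2018 against 2014 the sign also changed without the library of lowest summed FPKM (0.151 and 0.048), and for GBP6 with the animal as replicate block (0.123). Outcome within BAR gave -0.191 and -0.008, and with collection as a term -0.097 for GBP6. Taking June alone for 2017 gave GBP6 0.014 against 2014 and -0.048 for 2018 against 2017; median-ratio scaling gave -0.003 for sex. Without June 2013, GBP6 was at 0.098 for pregnancy and 0.074 for iron, and iron with collection as a term was 0.037. The ratio changed sign with a pseudocount of 0.1 for site (-0.057), site in 2014 (-0.107) and outcome (-0.003), and with scaling for the latter pair (-0.043 and -0.009). The number of loci called as deposited, after median-ratio scaling and after quantile normalization was 8379, 882 and 827 between the sites, 8297, 1237 and 1025 in 2014, 1902, 391 and 121 between SAR years, 0, 588 and 556 in 2017 against 2013, 134, 22 and 15 in 2017 against 2014, 32, 14 and 14 between sexes and 88, 322 and 293 between birth cohorts. The causes were not tested. With the animal as block, which pairs the 5 animals sampled in 2 collections, the site difference was 1.039 for GBP6 and 1.006 for GBP4. The block changed no call of either gene where it was fitted, which leaves out pregnancy outcome. Depth limits precision near 1 FPKM, where only the lowest GBP4 values lie.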
